A study of Mus musculus with 11 samples.

Results

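The genes described are 10 regulators of T cell activation, measured in mouse lung: the receptors Cd28, Ctla4, Icos and Pdcd1, the PD-1 ligand genes Cd274 and Pdcd1lg2, the receptors Tnfrsf4 and Tnfrsf18, the transcription factor Foxp3 and the interleukin-2 receptor chain Il2ra. They were found by gene name among the probes of each array, as 10 of 27670 genes and 15 of 41174 probes. A probe was tested where it lay well above background on at least 2 of the 11 arrays, which 13 of the 15 probes did, so that all 10 genes were among the 21875 tested. Ctla4 passed that filter only through its OVA arrays, so its place among the tested genes already depended on a high level there.

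Total RNA of whole lung was hybridised to one-colour (Cy3) Agilent arrays of 60-base probes. There were 3 arrays of Foxa3 knockout lung after OVA, 3 of littermate control lung after OVA, 2 of Foxa3 knockout lung after saline and 3 of littermate control lung after saline. OVA is ovalbumin, an egg protein used as an allergen, saline is the vehicle challenge, and littermate controls are called wild type. The labels give no age, strain, dose or time, do not say which part of Foxa3 was deleted or in which cells, and give no count of animals per array, so the p-values measure the spread between these samples.

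CD28 on a T cell is bound by CD80 and CD86 on antigen-presenting cells and gives the costimulatory signal that acts beside the T cell receptor. CTLA-4 binds the same ligands and restrains activation, while PD-1, the product of Pdcd1, restrains it after binding PD-L1 (Cd274) or PD-L2 (Pdcd1lg2) on other cells. ICOS, OX40 (Tnfrsf4) and GITR (Tnfrsf18) appear or increase on activated T cells and add to costimulation. FOXP3 specifies regulatory T cells, which also carry much CTLA-4, GITR and the high-affinity interleukin-2 receptor chain CD25 (Il2ra).

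Several of these genes are neighbours. In the RefSeq gene order of GRCm38.p6 there are 0 protein-coding genes between Cd28 and Ctla4 or between Ctla4 and Icos on chromosome 1, 0 between Cd274 and Pdcd1lg2 on chromosome 19, and 0 between Tnfrsf4 and Tnfrsf18 on chromosome 4. Pdcd1 lies further along chromosome 1, with 278 protein-coding genes between it and Icos. The probes are placed by the files on build mm7, without exon or UTR annotation. The first 30 of 60 bases are shown for the genes read by more than 1 tested probe and for Ctla4 and Foxp3, whose levels after saline lay near background. The 2 Cd28 probes lie at chr1:61023768-61023827 and chr1:61014956-61015015, the 2 Icos probes at chr1:61251160-61251219 and chr1:61249192-61249251, and the 2 tested Il2ra probes at chr2:11631963-11632024 and chr2:11629934-11629993. The Ctla4 probe lies at chr1:61165597-61165656 and the Foxp3 probe at chrX:6028182-6028241.
Cd28, brighter probe: ctacatggtaagatggaccagaaattgcaa
Cd28, dimmer probe: ttttacattcaactttagcacaattacaat
Icos, brighter probe: taactgccagtgtttgttttcatctcctgt
Icos, dimmer probe: tagaaccaacatgctctcttccaattccta
Il2ra, brighter probe: ctagtttccttcttcccattagtaataata
Il2ra, dimmer probe: cttggtacataccgtgaaaacactggaaag
Ctla4, the only probe: acagagccagaatgtgaaaagcaatttcag
Foxp3, the only probe: cagttcctttgtgtccgacaagatctggta

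Promoters of 8 of the 10 genes matched the RefSeq table of GRCm38.p6, which gives 250 bases before and 50 after each start. The 4 shown belong to the inhibitory receptors Pdcd1 and Ctla4 and to the PD-1 ligand genes Pdcd1lg2 and Cd274. Ctla4 is at chr1:60908775-60909074 on the plus strand, Pdcd1 at chr1:94052504-94052803 on the minus strand, Cd274 at chr19:29367188-29367487 and Pdcd1lg2 at chr19:29410669-29410968, both on the plus strand. Capitals mark every match, on either strand, to 6 motifs.
Ctla4: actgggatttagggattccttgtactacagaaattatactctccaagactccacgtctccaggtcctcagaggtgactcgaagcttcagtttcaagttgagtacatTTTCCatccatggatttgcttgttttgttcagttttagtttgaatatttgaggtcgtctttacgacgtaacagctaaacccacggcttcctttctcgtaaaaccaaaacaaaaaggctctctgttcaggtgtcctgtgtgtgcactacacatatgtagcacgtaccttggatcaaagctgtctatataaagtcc
Pdcd1: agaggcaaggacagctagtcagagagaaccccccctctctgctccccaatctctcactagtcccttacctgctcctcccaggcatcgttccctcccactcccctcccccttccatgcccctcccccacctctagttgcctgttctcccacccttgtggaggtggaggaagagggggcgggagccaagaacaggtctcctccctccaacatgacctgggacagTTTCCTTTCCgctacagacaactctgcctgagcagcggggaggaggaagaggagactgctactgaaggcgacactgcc
Cd274: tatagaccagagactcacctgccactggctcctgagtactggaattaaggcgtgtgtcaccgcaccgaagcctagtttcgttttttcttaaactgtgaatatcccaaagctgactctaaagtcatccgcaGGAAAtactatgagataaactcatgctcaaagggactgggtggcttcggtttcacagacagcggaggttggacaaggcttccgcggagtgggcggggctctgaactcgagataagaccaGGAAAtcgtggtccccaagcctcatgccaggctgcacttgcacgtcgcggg
Pdcd1lg2: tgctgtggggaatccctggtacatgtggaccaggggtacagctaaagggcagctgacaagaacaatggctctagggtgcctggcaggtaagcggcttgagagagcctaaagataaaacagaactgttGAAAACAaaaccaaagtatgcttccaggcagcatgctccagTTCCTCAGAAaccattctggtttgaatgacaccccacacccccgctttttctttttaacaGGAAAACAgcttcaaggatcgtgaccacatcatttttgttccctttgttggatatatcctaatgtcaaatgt

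The motifs, with the share of all 32851 promoters of this length that hold each on either strand, were the NFAT core GGAAA (61.3%), a forkhead motif TGTTTNC (20.5%), a STAT motif TTCNNNGAA (8.3%), the AP-1 motif TGANTCA (7.81%), the STAT6 spacing TTCNNNNGAA (6.95%) and an IRF motif GAAANNGAAA (3.44%). NFAT and AP-1 are factors activated by T cell receptor and CD28 signals, and STAT6 is activated by interleukin-4 and interleukin-13. The NFAT core occurred 1 time in Ctla4, 2 times in Pdcd1, 2 times in Cd274 and 1 time in Pdcd1lg2. The Pdcd1lg2 promoter also held 1 STAT6 spacing and 2 forkhead matches, of which the one starting 21 bases before the start overlaps its NFAT core at 22 bases before it. The AP-1, STAT and IRF letters had no match in these 4 windows. A match is a description of the letters.

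The Foxa3 probe, which checks the genotype, was well above background on 0 of 5 knockout and 6 of 6 wild-type arrays. Against the lowest signal counted as well above background, it was at least 8.57-fold lower in knockout after OVA and at least 1.62-fold lower after saline. The fitted differences, -4.49 and -2.60 (limma's adjusted p 0.000353 and 0.0324), rest on knockout readings not well above background. Between 71.2% and 78.9% of probes were well above background on each array. All 8 lung epithelium markers were well above background on every array, as were all 14 T cell markers. The arrays lie on 3 slides, and slide 3 holds no knockout saline array, so knockout OVA differences could be formed within slides 1 and 2 and wild-type ones within all 3. Because the RNA is from whole lung, more cells of a type and more RNA per cell cannot be told apart.

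Levels below are log2 intensity minus the 75th percentile of the array's probes, so 0 is the 75th percentile and a step of 1 is a 2-fold difference. Each probe has its own scale, and levels are compared between arrays only. Differences are log2 differences with their standard error (SE), and adjusted p is limma's value over the 21875 genes tested.

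Nearly the whole set was higher after OVA than after saline in both genotypes. In knockout lung 9 of the 10 genes passed the test upward, against 6.45% of all genes tested, and the exception was Cd28 (0.56 ± 0.36, adjusted p 0.328). In wild-type lung 10 of 10 passed upward, against 10.9% of all genes. Ctla4, which was tested only through its OVA arrays, is in both counts, so its pass is not separate from the filter. The median difference of the 10 genes was 1.52 in knockout and 1.66 in wild type, beside -0.01 and 0.02 over all genes. The OVA arrays of each of the 10 genes lay above all the saline arrays of the same genotype, a pattern that 24.5% of all genes showed upward in knockout and 22.2% in wild type. None of the 10 fell. Of the 9 knockout calls 8 were lost when some 1 array was left out, beside 2 of the 10 wild-type calls. With slide as a block 8 genes passed in knockout, where Cd274 was also lost (adjusted p 0.0569), and 10 in wild type. Without the 4 arrays of slide 1 no gene passed in either genotype, and across all genes 13 passed in knockout and 27 in wild type. All 10 differences kept their direction (Pdcd1 3.92 in knockout and 3.79 in wild type), in a fit where knockout saline has 1 array taken to vary like the other groups.

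**Figure D1:**
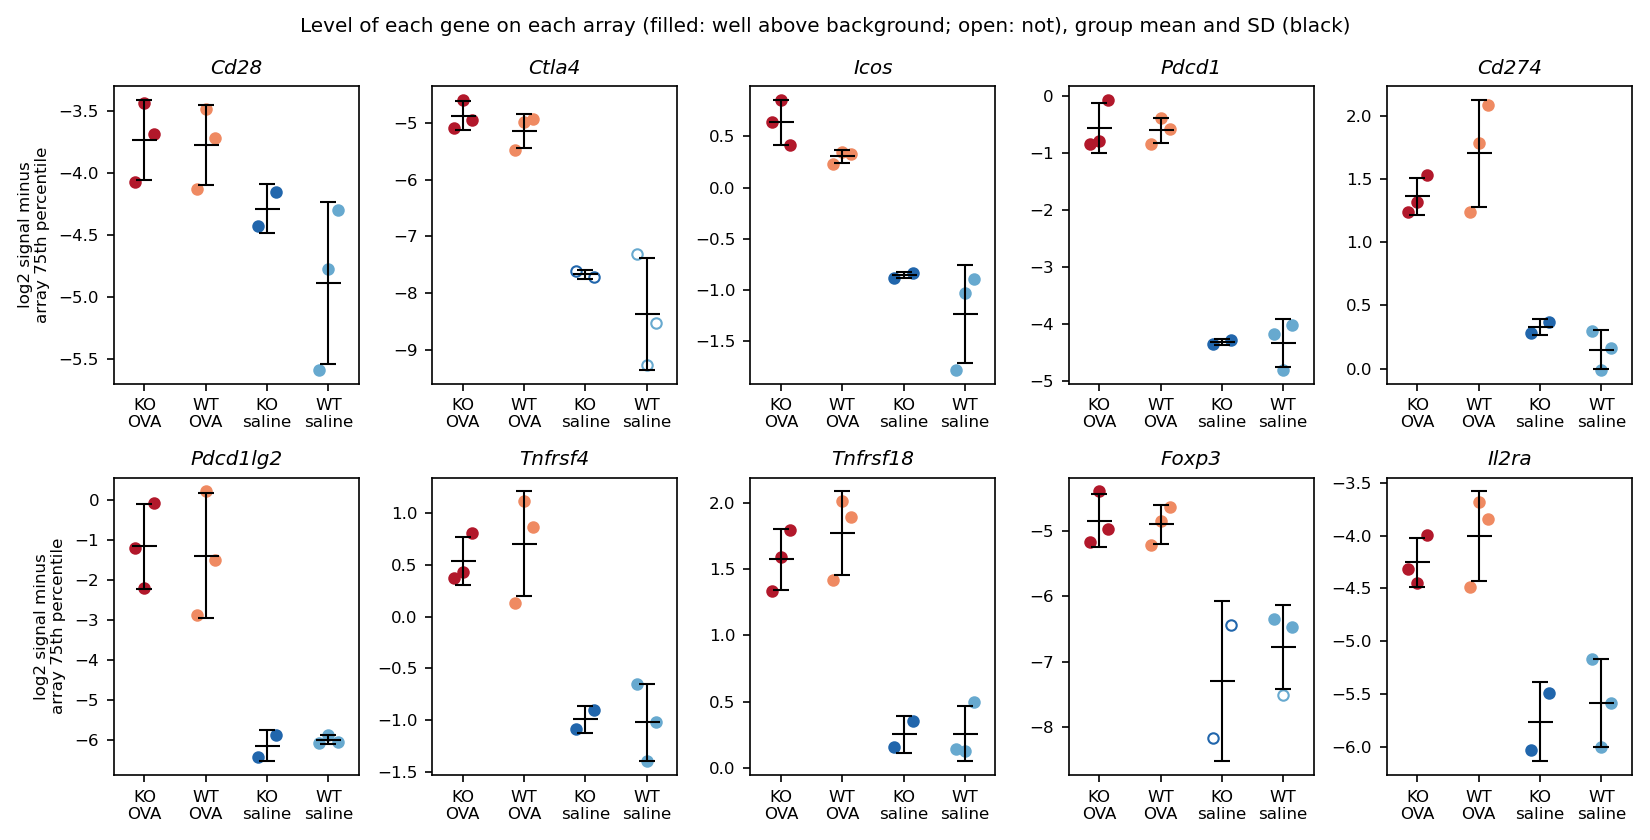
Level of each of the 10 genes on each array (log2 intensity minus the array's 75th percentile), by group, with the group mean and SD in black and open points where the probe was not well above background. Each panel has its own scale. The 6 OVA arrays lie above the saline arrays of their genotype in every panel, and all 5 saline points of Ctla4 are open.

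**Figure D2:**
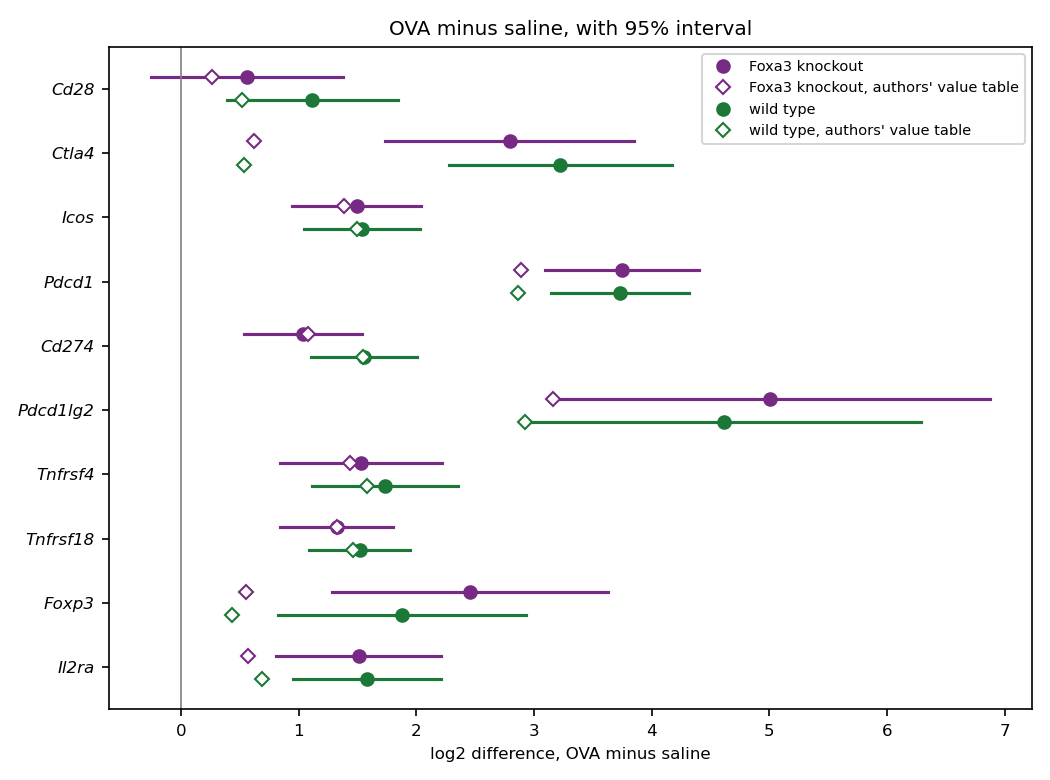
OVA minus saline for each gene in knockout and wild type, as a log2 difference with its 95% interval (filled points), and the same difference in the authors' value table (open diamonds). The diamonds sit well to the left of the filled points for Ctla4, Foxp3, Il2ra, Pdcd1 and Pdcd1lg2, and close to them for Icos, Cd274, Tnfrsf4 and Tnfrsf18.

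Pdcd1, which encodes the inhibitory receptor PD-1, had the smallest p-value of the set. Its levels were -0.84, -0.80 and -0.07 in knockout OVA, -0.84, -0.40 and -0.57 in wild-type OVA, -4.36 and -4.27 in knockout saline and -4.17, -4.81 and -4.02 in wild-type saline. The challenges were far apart and the genotypes overlapped within each. The difference between OVA and saline was 3.75 ± 0.29 in knockout (13.4-fold, adjusted p 0.000862) and 3.73 ± 0.26 in wild type (13.2-fold, adjusted p 0.000416). Among all 21875 genes its p-value ranked 10 in knockout and 9 in wild type. By slide the difference was 3.43 and 4.29 in knockout and 3.59, 3.97 and 3.62 in wild type. Its call held in both genotypes whichever array was left out. In the authors' value table, which follows the raw spot signal, it was 2.89 in knockout and 2.87 in wild type.

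Its ligand genes behaved differently from each other. Pdcd1lg2, for PD-L2, stood at -1.20, -2.19 and -0.08 in knockout OVA, -2.89, 0.23 and -1.50 in wild-type OVA, -6.43 and -5.88 in knockout saline and -6.08, -5.88 and -6.05 in wild-type saline. The saline arrays lay close together and the OVA arrays spread over more than 3 units in wild type, with wild-type OVA 2 highest and wild-type OVA 1 lowest. The difference was 5.0 ± 0.83 in knockout (32.1-fold, adjusted p 0.0102) and 4.62 ± 0.74 in wild type (24.5-fold, adjusted p 0.00632), the largest of the 10 genes in both. By slide it ran from 4.68 to 6.36 in knockout and from 2.99 to 6.28 in wild type. In the authors' value table it was 3.16 in knockout and 2.92 in wild type, over 1.5 times smaller on the log2 scale. The knockout call was lost without knockout saline 1 (4.73, adjusted p 0.101) or knockout saline 2 (5.28, adjusted p 0.0571).

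Cd274, for PD-L1, was already bright after saline. It stood at 1.24, 1.32 and 1.53 in knockout OVA, 1.24, 1.78 and 2.08 in wild-type OVA, 0.29 and 0.37 in knockout saline and 0.30, -0.01 and 0.16 in wild-type saline. All saline arrays were below all OVA arrays, and the spread within a group was under 1 unit. The rise was 1.03 ± 0.22 in knockout (2.05-fold, adjusted p 0.028) and 1.55 ± 0.20 in wild type (2.93-fold, adjusted p 0.00304). Slides 1 and 2 gave 0.87 and 1.24 in knockout, and the 3 slides gave 1.79, 1.25 and 1.62 in wild type. The knockout call was lost without knockout saline 1 (0.99, adjusted p 0.171), knockout saline 2 (1.08, adjusted p 0.127), knockout OVA 1 (1.1, adjusted p 0.0598) or knockout OVA 3 (0.95, adjusted p 0.0937).

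PD-1 ligands are made by macrophages and dendritic cells among other cells. Most macrophage markers moved with them, and dendritic cell markers did in part. Of 9 measured macrophage and monocyte markers 7 rose in knockout and 9 in wild type, with the complement gene C1qb at 2.71 and 2.74. The mean level of that list ran from 2.29 to 3.06 in knockout OVA, 2.28 to 3.29 in wild-type OVA, 0.84 to 0.88 in knockout saline and 0.86 to 1.09 in wild-type saline, and all 9 were well above background on every array. Of 10 dendritic cell and MHC class II markers 5 rose in knockout and 6 in wild type, with H2-Ab1 at 1.14 and 1.09. Differences on that list ran from -0.37 to 2.11 in knockout (median 0.49) and from -0.78 to 1.66 in wild type (median 0.80). In both genotypes 0 of them passed downward. Without knockout saline 1 the knockout calls of C1qb (2.70, adjusted p 0.0657) and H2-Ab1 (1.13, adjusted p 0.0657) were lost. That list's mean level ran from 0.58 to 0.78 in knockout OVA, 0.74 to 1.05 in wild-type OVA, 0.03 to 0.15 in knockout saline and 0.24 to 0.39 in wild-type saline. Interferon raises PD-L1 in many cell types, and of 9 interferon response genes 8 rose in knockout and 9 in wild type, with medians of 1.39 and 3.12. Irf7, a transcription factor of that response, was the 1 gene of this list to differ between the genotypes after OVA, by -2.45 ± 0.25 in knockout (adjusted p 0.00735), and differed by -0.22 ± 0.28 after saline (adjusted p 1). It lost that call with normexp background correction (-2.21, adjusted p 0.241), without slide 1 (-2.23) and in a fit of the OVA arrays alone (0.192). Irf7 kept the call with normexp leaving out spots of bright local background (-2.39, adjusted p 0.00119), and whichever single array was left out. The part of these cells or signals in the ligand differences was not tested.

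Ctla4, the inhibitory receptor that shares ligands with CD28, was detected after OVA only. Its levels were -5.09, -4.59 and -4.95 in knockout OVA and -5.48, -4.99 and -4.94 in wild-type OVA, well above background on 3 of 3 arrays of each. After saline they read -7.62 and -7.72 in knockout and -7.31, -9.27 and -8.52 in wild type, well above background on 0 of 5 arrays, so that these are readings near the limit of the arrays and not levels. Against the lowest signal counted as well above background, OVA levels were at least 3.37-fold higher in knockout and at least 3.98-fold higher in wild type. The fitted differences, 2.79 (adjusted p 0.0106) and 3.22 (adjusted p 0.00311), rest on the background readings, as do their p-values. In the authors' value table the differences were 0.62 in knockout (adjusted p 0.0118) and 0.54 in wild type (adjusted p 0.00805), so the direction held and the size did not. The knockout call was lost without knockout saline 1 (2.84, adjusted p 0.0919) or knockout saline 2 (2.74, adjusted p 0.0761).

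Icos, the costimulatory receptor of activated and follicular helper T cells, rose on both its probes. The brighter probe stood at 0.64, 0.86 and 0.41 in knockout OVA, 0.23, 0.35 and 0.33 in wild-type OVA, -0.88 and -0.84 in knockout saline and -1.78, -1.03 and -0.89 in wild-type saline. Every knockout array lay above every wild-type array of the same challenge on this probe. The rise with OVA was 1.49 ± 0.24 in knockout (2.81-fold, adjusted p 0.0096) and 1.54 ± 0.22 in wild type (2.9-fold, adjusted p 0.0041). The dimmer probe gave 1.17 ± 0.18 and 1.48 ± 0.16 (adjusted p 0.0084 and 0.00158 in the fit of every probe). By slide the brighter probe gave 1.48 and 1.29 in knockout and 2.11, 1.26 and 1.24 in wild type. The authors' value table gave 1.38 and 1.5. The knockout call was lost without knockout saline 1 (1.47, adjusted p 0.0933) or knockout saline 2 (1.51, adjusted p 0.0634).

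Cd28, the costimulatory receptor that resting T cells already carry, moved least. Its main probe is printed in 10 spots per array, with an SD between spots of 0.05 to 0.14. It stood at -4.07, -3.43 and -3.69 in knockout OVA, -4.12, -3.48 and -3.72 in wild-type OVA, -4.43 and -4.15 in knockout saline and -5.59, -4.77 and -4.30 in wild-type saline. The OVA arrays of the genotypes were nearly the same, the saline arrays of the genotypes overlapped, and wild-type saline 1 was the lowest of all. The difference was 0.56 ± 0.36 in knockout (adjusted p 0.328) and 1.11 ± 0.32 in wild type (2.16-fold, adjusted p 0.0435), with 0.07 and 0.74 by slide in knockout and 1.87, 0.65 and 0.81 in wild type. The wild-type call was lost without wild-type saline 1 (0.76, adjusted p 0.0986) or 2 (1.17, 0.0999), wild-type OVA 2 (0.97, 0.149) or 3 (1.08, 0.116), knockout saline 1 or 2 (1.11, 0.0629 each) and knockout OVA 1 (0.0507) or 3 (0.0557). It was also lost with quantile scaling (1.05, adjusted p 0.079), median scaling (1.07, 0.0623), no filter on dim probes (0.0539), the mean of both probes (0.85, 0.137) and a fit of the wild-type arrays alone (0.0919). The dimmer Cd28 probe, well above background on 3 of 5 knockout and 0 of 6 wild-type arrays, did not pass in knockout (-0.08, adjusted p 0.94) and gives no level in wild type. The authors' value table gave 0.26 and 0.52 (adjusted p 0.377 and 0.051).

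The neighbouring TNF receptor family genes rose by similar amounts and were bright on every array. Tnfrsf4, for OX40, stood at 0.37, 0.44 and 0.81 in knockout OVA, 0.14, 1.12 and 0.87 in wild-type OVA, -1.08 and -0.90 in knockout saline and -0.65, -1.40 and -1.02 in wild-type saline. The difference was 1.53 ± 0.31 in knockout (2.89-fold, adjusted p 0.0218) and 1.73 ± 0.27 in wild type (3.32-fold, adjusted p 0.00595). Wild-type OVA 1 was the lowest OVA array, and the challenges did not overlap. Tnfrsf18, for GITR, stood at 1.33, 1.59 and 1.80 in knockout OVA, 1.42, 2.01 and 1.90 in wild-type OVA, 0.16 and 0.35 in knockout saline and 0.14, 0.13 and 0.50 in wild-type saline. Its difference was 1.32 ± 0.21 in knockout (2.5-fold, adjusted p 0.00911) and 1.52 ± 0.19 in wild type (2.87-fold, adjusted p 0.00284). Wild-type OVA 1 and knockout OVA 1 were the lowest OVA arrays, still above every saline array.

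By slide Tnfrsf4 gave 1.27 and 1.89 in knockout and 1.51, 1.54 and 2.14 in wild type, and Tnfrsf18 gave 0.98 and 1.64 in knockout and 1.76, 1.29 and 1.51 in wild type. The authors' value table gave 1.43 and 1.58 for Tnfrsf4 and 1.33 and 1.46 for Tnfrsf18. The knockout call of Tnfrsf4 was lost without knockout saline 1 (1.44, adjusted p 0.155), knockout saline 2 (1.62, 0.0985), knockout OVA 1 (1.61, 0.0508) or knockout OVA 3 (1.40, 0.0779). That of Tnfrsf18 was lost without knockout saline 1 (1.22, adjusted p 0.1).

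Foxp3, the factor that specifies regulatory T cells, was detected on every OVA array and on 2 of 5 saline arrays. Its levels were -5.18, -4.39 and -4.97 in knockout OVA, -5.22, -4.85 and -4.63 in wild-type OVA, -8.17 and -6.44 in knockout saline and -6.35, -7.51 and -6.47 in wild-type saline. It was well above background on 6 of 6 OVA arrays, 0 of 2 knockout saline arrays and 2 of 3 wild-type saline arrays. Foxp3 was at least 3.08-fold higher with OVA in knockout and 1.88 ± 0.46 higher in wild type (3.67-fold, adjusted p 0.0277). The fitted difference in knockout, 2.46 ± 0.52 (adjusted p 0.0266), rests on saline readings not well above background. By slide it gave 1.26 and 3.20 in knockout and 1.72, 2.30 and 1.61 in wild type. In the authors' value table it was 0.55 in knockout (adjusted p 0.0196) and 0.43 in wild type (adjusted p 0.0185). The direction held and the size again did not, and the cause was not tested. With normexp background correction, leaving out spots of bright local background, the difference was 0.39 in knockout (adjusted p 0.0851) and 0.69 in wild type.

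The knockout call of Foxp3 was lost in a fit of the knockout arrays alone (adjusted p 0.0978) and without knockout saline 1 (1.59, adjusted p 0.175), knockout OVA 1 (2.62, 0.0563) or knockout OVA 3 (2.52, 0.0771). The wild-type call was lost without wild-type saline 1 (2.09, 0.0529), 2 (1.51, 0.0915) or 3 (2.03, 0.0548) and without wild-type OVA 2 (1.85, 0.0923) or 3 (1.74, 0.0927).

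Il2ra, for the CD25 chain that regulatory and newly activated T cells carry, rose on both tested probes. The brighter probe stood at -4.32, -4.45 and -3.99 in knockout OVA, -4.49, -3.68 and -3.84 in wild-type OVA, -6.03 and -5.49 in knockout saline and -5.17, -6.00 and -5.59 in wild-type saline. Saline and OVA arrays did not overlap, and the genotypes did within each challenge. The difference was 1.51 ± 0.31 in knockout (2.84-fold, adjusted p 0.0241) and 1.58 ± 0.28 in wild type (2.99-fold, adjusted p 0.0091), with 1.17 and 2.04 by slide in knockout and 1.32, 1.51 and 1.91 in wild type. The dimmer probe was well above background on 6 of 6 OVA arrays, 0 of 2 knockout saline arrays and 2 of 3 wild-type saline arrays. It was at least 4.84-fold higher in knockout. The fitted difference there, 3.82 ± 0.48 (adjusted p 0.0051), rests on saline readings not well above background. In wild type this probe was 2.73 ± 0.43 higher (adjusted p 0.00624), so that the probes share direction and differ in size. The remaining 2 Il2ra probes were well above background on no array and were not tested. The authors' value table gave 0.56 in knockout and 0.68 in wild type for the brighter probe (adjusted p 0.0363 and 0.0081). The knockout call was lost in a fit of the knockout arrays alone (adjusted p 0.0537) and without knockout saline 1 (1.24, adjusted p 0.182), knockout saline 2 (1.78, 0.0661), knockout OVA 1 (1.54, 0.0624) or knockout OVA 3 (1.38, 0.0851).

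Set against the genotype, the 10 genes showed no call. Of the 10 genes 0 passed between knockout and wild type after OVA, beside 0.21% of all genes tested, and 0 after saline, beside 0.096%. On the brightest tested probe of each gene, the count at an unadjusted p under 0.05 was also 0 after either challenge. No alternative run gave a call. The difference of the OVA responses between the genotypes called 0 of the 10, beside 0.00457% of all genes. On these brightest probes the differences after OVA ran from -0.34 (Cd274) to 0.33 (Icos). After saline they ran from -0.52 (Foxp3, not well above background in knockout) to 0.69 (Ctla4, not well above background in either group). Some dimmer probes lay outside these ranges. After saline Il2ra had -1.16 ± 0.48 (knockout not well above background) and Cd28 1.09 ± 0.51. After OVA Cd28 had 0.43 ± 0.45. The dimmer Cd28 probe was not well above background in wild type, and none of these passed after adjustment. A difference that misses the threshold does not show equality, and the intervals differ in width. After OVA the 95% interval was -0.63 to 0.23 for Tnfrsf18, -0.79 to 0.11 for Cd274, -0.16 to 0.82 for Icos, -0.55 to 0.62 for Pdcd1 and -1.0 to 1.11 for Foxp3. It was widest for Pdcd1lg2, at -1.45 to 1.91.

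On the brightest tested probes, Icos was the only member of the set whose genotypes did not overlap. It was higher in knockout after OVA (0.33 ± 0.22, adjusted p 1) and after saline (0.38 ± 0.24, adjusted p 1). Upward separation of this kind was seen in 3.66% of all genes after OVA and 10.8% after saline. The dimmer Icos probe did not share it: after OVA it read -1.67, -1.60 and -1.74 in knockout and -1.70, -1.58 and -1.69 in wild type, and after saline -2.85 and -2.83 in knockout and -3.50, -3.11 and -2.80 in wild type. Its genotype difference was -0.01 ± 0.16 after OVA and 0.29 ± 0.18 after saline. The dimmer Il2ra probe separated the genotypes downward after saline, though only narrowly. It read -7.36 and -8.99 in knockout and -6.67, -7.05 and -7.35 in wild type. The nearest readings were -7.364 on knockout saline 1 and -7.3515 on wild-type saline 3. Neither knockout reading was well above background, and nor was that of wild-type saline 3. The share of all genes separated downward is not given here.

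**Figure D3:**
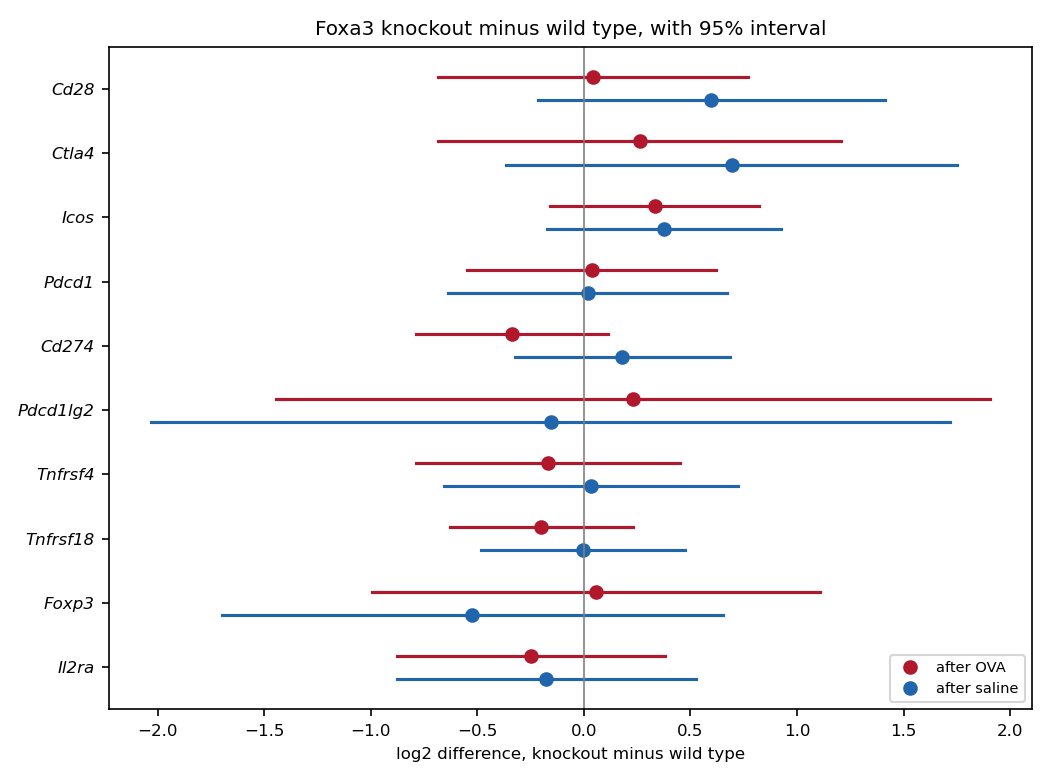
Knockout minus wild type for each of the 10 genes, on its brightest tested probe, after OVA and after saline, as a log2 difference with its 95% interval. All 20 intervals include 0, and those of Pdcd1lg2 are the widest.

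T cell markers moved with the set in part, so the differences were also taken relative to the genes of the T cell receptor complex. The mean level of Cd3d, Cd3e, Cd3g and Cd247 ran from -0.72 to -0.48 in knockout OVA, -0.86 to -0.40 in wild-type OVA, -1.23 to -0.92 in knockout saline and -1.78 to -1.24 in wild-type saline. Of these 4 genes 0 passed in knockout (median 0.42) and 3 rose in wild type (median 0.95), Cd3d by 1.39. Of 14 T cell markers 2 rose in knockout (median 0.58) and 10 rose and 1 fell in wild type (median 0.95). The CD3 mean of each array was subtracted and the same fit repeated over all genes. This subtraction cannot separate T cell number from RNA per cell, so the part of T cell number in the differences was not tested. Cd274 and Pdcd1lg2 are made by macrophages and dendritic cells among other cells, so the CD3 mean is not a measure of all their source cells.

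Pdcd1 and Pdcd1lg2 rose far more than the CD3 genes. Relative to the CD3 genes, 4 of the 10 genes passed upward in knockout, beside 1.89% of all genes, and 7 in wild type, beside 2.48%. Ctla4, tested only through its OVA arrays, and the ligand gene Pdcd1lg2 are in both counts, and Cd274 is in the wild-type count. Of all genes 0.718% and 69.5% passed downward. Pdcd1 rose by 3.26 ± 0.29 in knockout (adjusted p 0.000419) and 2.78 ± 0.26 in wild type (adjusted p 0.00116) relative to the CD3 genes, and Pdcd1lg2 by 4.52 ± 0.70 (adjusted p 0.00696) and 3.67 ± 0.63 (adjusted p 0.00237). In wild type Tnfrsf4 (0.78 ± 0.28, adjusted p 0.025), Cd274 (0.61 ± 0.22, 0.0283), Icos (0.59 ± 0.23, 0.0372) and Tnfrsf18 (0.57 ± 0.18, 0.0146) also passed. In knockout the same 4 genes had 1.05, 0.55, 1.01 and 0.84 (adjusted p 0.0665, 0.128, 0.059 and 0.0523). Cd28 did not pass, at 0.08 ± 0.27 in knockout and 0.16 ± 0.24 in wild type (adjusted p 0.837 and 0.535). Il2ra had 1.03 and 0.63 (adjusted p 0.0687 and 0.0609).

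For Ctla4, Foxp3 and Il2ra this relative difference was lower in the authors' value table, and the cause was not tested. Ctla4 passed at 2.31 in knockout (adjusted p 0.0378) and 2.28 in wild type (adjusted p 0.0024), and Foxp3 at 1.97 in knockout (adjusted p 0.0467), with 0.93 in wild type (adjusted p 0.0573). In the authors' value table Ctla4 had 0.20 in knockout and -0.35 in wild type (adjusted p 0.462 and 0.113), and Foxp3 had 0.14 in knockout and -0.45 in wild type (adjusted p 0.62 and 0.0448). Il2ra had 0.15 and -0.20 there (adjusted p 0.577 and 0.342). The sign of the wild-type value relative to the CD3 genes thus differed between the sources for Ctla4, Foxp3 and Il2ra. Pdcd1 in both genotypes, and Ctla4 and Pdcd1lg2 in wild type, kept this call whichever array was left out.

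Single arrays moved many of the other calls relative to the CD3 genes. In knockout Ctla4 was lost without knockout saline 1 (2.52, adjusted p 0.179), knockout saline 2 (2.10, 0.147), knockout OVA 1 (2.35, 0.085), 2 (2.17, 0.0582) or 3 (2.41, 0.097), wild-type saline 3 (0.0508) or wild-type OVA 3 (0.0635). Foxp3 was lost without knockout saline 1 (1.26, 0.371), knockout OVA 1 (2.08, 0.0895), 2 (1.75, 0.0688) or 3 (2.10, 0.11), wild-type saline 3 (0.0612) or wild-type OVA 3 (0.0718). Pdcd1lg2 was lost without knockout saline 1 (4.40, 0.0821) or 2 (4.64, 0.0645). Conversely, Tnfrsf4 (adjusted p 0.0394), Tnfrsf18 (0.0455) and Il2ra (0.0375) passed in knockout without wild-type saline 1, and Icos (0.0263), Tnfrsf4 (0.0367), Tnfrsf18 (0.0231) and Il2ra (0.0427) without wild-type OVA 1.

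In wild type Icos was lost without wild-type saline 1 (0.44, adjusted p 0.126) or 3 (0.62, 0.0503) and without wild-type OVA 1 (0.49, 0.0961), 2 (0.62, 0.0712) or 3 (0.66, 0.0521). Cd274 was lost without wild-type saline 2 (0.54, 0.0956) or 3 (0.47, 0.0804) and wild-type OVA 2 (0.62, 0.065) or 3 (0.50, 0.0998). Tnfrsf4 was lost without the same arrays (0.61, 0.64, 0.63 and 0.79, adjusted p 0.104, 0.0746, 0.0971 and 0.0576), and Tnfrsf18 without wild-type saline 2 (0.53, 0.0625) or wild-type OVA 2 (0.50, 0.065). Foxp3 passed without wild-type saline 1 (1.27, 0.0243) or either knockout saline array (0.0312), and Il2ra without wild-type saline 1 (0.97, 0.0106).

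**Figure D4:**
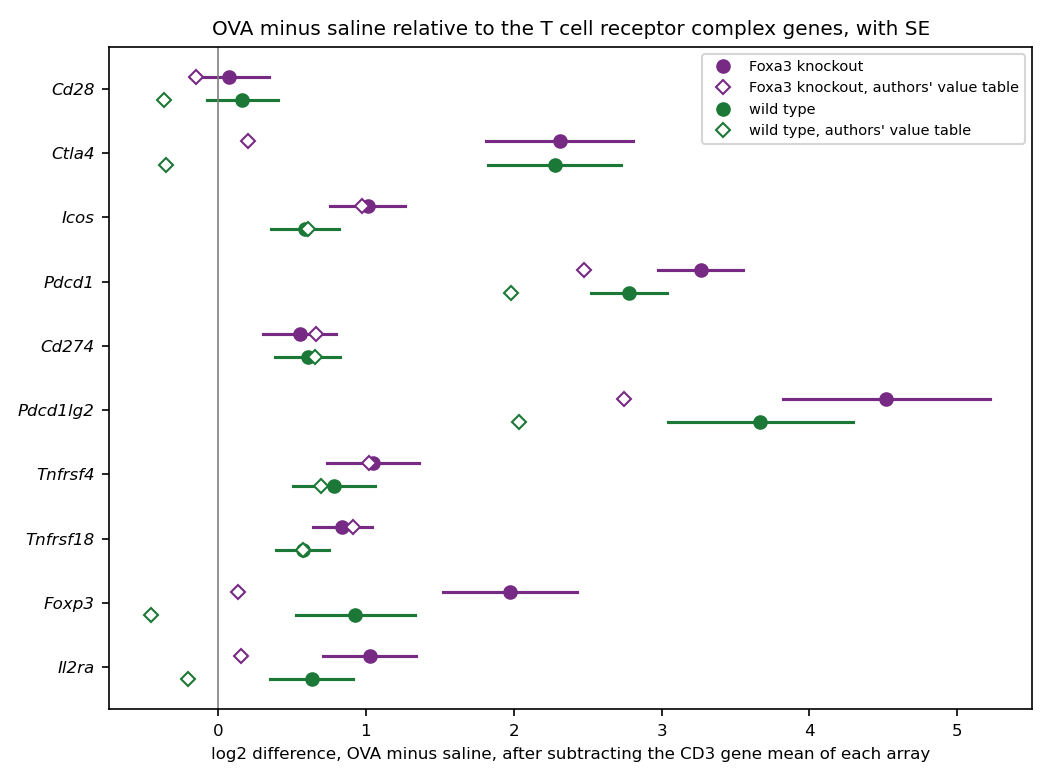
OVA minus saline for each gene after subtracting the mean of the 4 CD3 genes on each array, as a log2 difference with its SE (filled points), beside the same quantity in the authors' value table (open diamonds). Pdcd1 and Pdcd1lg2 lie well above 0 by either source, while the diamonds of Cd28, Ctla4, Foxp3 and Il2ra lie near or below 0.

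The ligands that these receptors bind rose in part. Of 6 measured ligand genes 2 rose in knockout and 3 in wild type. Cd80 and Cd86, the ligands shared by CD28 and CTLA-4, rose by 1.45 ± 0.12 and 1.34 ± 0.16 in knockout (adjusted p 0.00111 and 0.00417) and by 1.48 ± 0.11 and 1.27 ± 0.15 in wild type (adjusted p 0.000533 and 0.00208). Tnfsf4, the OX40 ligand, passed in wild type only (1.70 in knockout and 2.39 in wild type, adjusted p 0.0991 and 0.0201) and was well above background on 3 of 11 arrays. Its wild-type call was lost without wild-type saline 1 (2.38, adjusted p 0.0589), 2 (2.35, 0.0671) or 3 (2.45, 0.0505) or wild-type OVA 2 (2.03, 0.0774) or 3 (2.02, 0.0731), and the knockout call of Cd86 without knockout saline 1 (1.13, 0.0522). The authors' value table gave smaller differences for Cd80 (0.59 and 0.64) and Tnfsf4 (0.24 and 0.35), and with normexp background correction, leaving out spots of bright local background, Cd80 was 0.26 in knockout (adjusted p 0.255) and 0.77 in wild type (adjusted p 0.00294). The list median was 1.39 in knockout and 1.07 in wild type. The lists named here were chosen with earlier results of these data known.

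Of 15 other costimulatory genes 3 rose in knockout and 6 in wild type (medians 0.52 and 0.73). Tnfrsf9, for the receptor 4-1BB of activated T cells, was the largest at 3.86 ± 0.48 in knockout (adjusted p 0.00423) and 3.43 ± 0.43 in wild type (adjusted p 0.00284), followed by the CD30 ligand Tnfsf8 (1.49 and 2.00, adjusted p 0.0165 and 0.00284). Averaging its probes gave 1.63 and 2.03 for Tnfrsf9. The knockout calls were lost without knockout saline 1 (Tnfrsf9 3.84, adjusted p 0.0553, and Tnfsf8 1.49, adjusted p 0.122), and that of Tnfsf8 also without knockout saline 2 (1.49, 0.0991), knockout OVA 1 (1.42, 0.0564) or 3 (1.41, 0.0637). Of 11 other inhibitory genes 4 rose in knockout and 6 in wild type (medians 0.09 and 0.65). Lag3, an inhibitory receptor that binds MHC class II, rose by 2.28 ± 0.22 in knockout (adjusted p 0.00199) and 1.78 ± 0.20 in wild type (adjusted p 0.00175).

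One gene of the pathway lists differed between the genotypes. Lgals9, for galectin-9, a ligand of the receptor TIM-3, differed by -0.94 ± 0.14 in knockout after OVA (adjusted p 0.0402) and -0.27 ± 0.15 after saline (adjusted p 1). With OVA it was 0.09 ± 0.15 in knockout (adjusted p 0.747) and rose by 0.76 ± 0.14 in wild type (adjusted p 0.0105), and the difference of these responses did not pass (-0.67 ± 0.21, adjusted p 1). The genotype difference after OVA was -0.90 in the authors' value table (adjusted p 0.00766). The call was lost with slide as a block (adjusted p 0.0642), with no filter on dim probes (0.0616), with normexp background correction (-0.83, 0.635), without slide 1 (-0.84) and in a fit of the OVA arrays alone (0.39). With normexp leaving out spots of bright local background the call was kept (-0.89, adjusted p 0.00911). It was lost without any 1 of 10 arrays, with differences of -1.03 to -0.84 and adjusted p of 0.0718 to 0.174, and was kept without knockout OVA 3 (-1.06, adjusted p 0.0442).

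Downstream, 6 of 20 genes of CD28 and T cell receptor signalling rose in knockout, and 12 rose and 1 fell in wild type (medians 0.48 and 0.67). The adaptors Lcp2 and Lat rose by 1.23 and 0.95 in knockout (adjusted p 0.0231 and 0.018) and by 1.40 and 1.14 in wild type (adjusted p 0.00618 and 0.00428). Ptpn22, a phosphatase that restrains T cell receptor signals, had 0.63 in knockout (adjusted p 0.0774) and rose by 1.05 in wild type (adjusted p 0.00789). Of 9 genes of the interleukin-2 receptor and its signalling 2 rose in knockout and 5 in wild type (medians 0.47 and 0.73). Socs1, a feedback inhibitor of cytokine signals, rose by 2.13 and 2.72 (adjusted p 0.015 and 0.00301). The knockout calls of Lcp2, Lat and Socs1 were lost without knockout saline 1 (1.26, 0.91 and 2.01, adjusted p 0.137, 0.142 and 0.129), knockout saline 2 (1.20, 1.00 and 2.26, adjusted p 0.13, 0.0925 and 0.0761) or knockout OVA 3 (1.15, 0.90 and 1.88, adjusted p 0.082, 0.0665 and 0.0528), and that of Lcp2 without knockout OVA 1 (1.23, 0.0643). The receptor chain Il2rb had 0.79 in knockout (adjusted p 0.119) and rose by 1.61 in wild type (adjusted p 0.00732).

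Of 19 genes linked with regulatory T cells 4 rose in knockout and 7 in wild type, with medians of 0.40 and 0.45, closer to the all-gene median than the 10 genes were. Besides Tnfrsf9, the anti-inflammatory cytokine gene Il10 rose by 1.22 and 1.86 (adjusted p 0.0411 and 0.00428, well above background on 7 of 11 arrays). Its knockout call was lost without any 1 of 8 arrays (0.88 to 1.55, adjusted p 0.0573 to 0.239), namely the 3 wild-type saline arrays, both knockout saline arrays, wild-type OVA 3 and knockout OVA 1 and 3, and the authors' value table gave 0.22 and 0.31 (adjusted p 0.143 and 0.0312). Many of these genes are also made by other activated lymphocytes. Cell cycle genes moved beside them: all 6 rose in both genotypes, with medians of 2.93 in knockout and 2.44 in wild type, and their part in the results was not tested. Among the 3 genes of each list with the smallest p for OVA in wild type, not all of them named here, 33 differences were called in knockout. Of these, 26 were lost when some 1 array was left out, beside 17 of 50 in wild type.

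**Figure D5:**
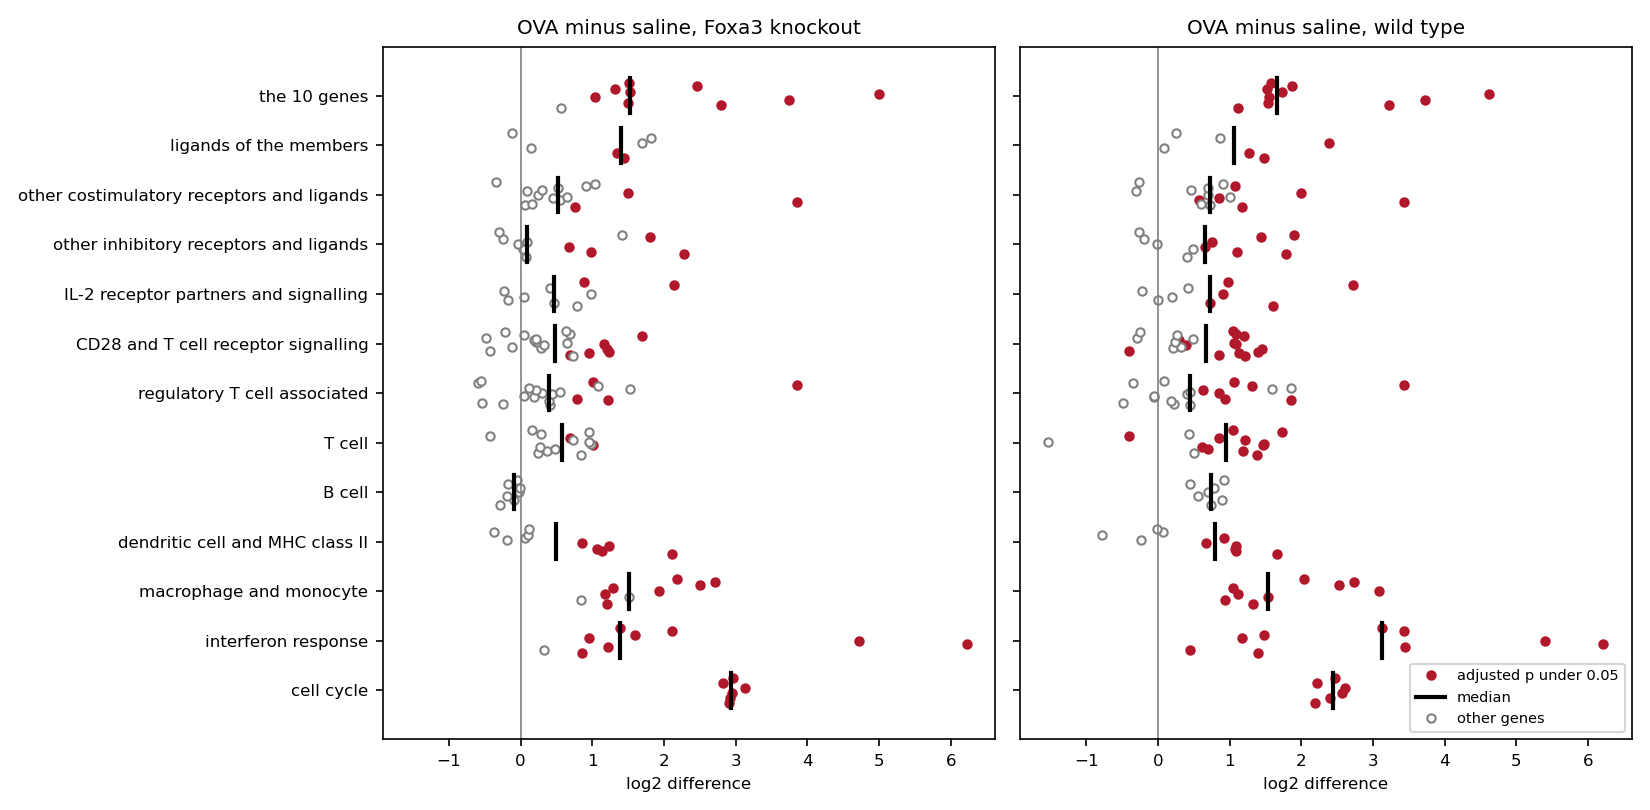
OVA minus saline of each measured gene (log2 difference) in knockout and wild type, for the 10 genes and 12 gene lists. Red points passed at adjusted p under 0.05, open points did not, and black bars are list medians, which are 1.52 in knockout and 1.66 in wild type for the 10 genes.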

How the data were processed

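Per the labels, total RNA of 11 lung samples (400 ng each) was labelled with Cy3 and hybridised to one-colour Agilent arrays. Per the file headers, each deposited scanner file holds 45018 spots with Agilent Feature Extraction 9.5.1.1 processed intensity on a linear scale, background-subtracted, while the submitters' processing notes name version 9.1. The authors' series value table is on a log2 scale with nearly equal medians per array (7.669 to 7.674) and ranks spots as the raw median signal does (rank correlation at least 0.99992). Its background and scaling steps are not given in the sources used here, so its differences are read on its own scale.

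From the scanner files the log2 of each intensity was taken, spots of 1 probe were averaged, control and outlier spots left out, and the array's 75th percentile subtracted. A gene was read from its brightest probe among those well above background on at least 2 arrays (32946 probes, 21875 genes). Probes were named through RefSeq by accession (22951), current symbol (6659) or older symbol (3109), and otherwise by the file's name (8455). limma 3.58.1 (R 4.3.3) fitted 1 mean per group over all 11 arrays, with Benjamini-Hochberg adjustment and a threshold of 0.05, and was tested on simulated data. The number of arrays limits the precision. A fold written "at least" sets the detected group's mean against the lowest signal well above background where the other group had no detected array. Where a reading of that other group was higher than this signal, the reading was used. Such a fold was not itself tested, and p-values belong to the fitted differences. The members and lists were chosen with earlier results of these data known. Of each list, the genes named come from the 3 with the smallest p for OVA in wild type. Alternatives covered background correction, scaling, filter, probe summary, prior, slide, replicate number, left-out arrays and the value table.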

Additional observations from a re-analysis of the deposited data

Results flagged for a closer look

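The genotype difference of Cd274, taken between group means, had opposite signs after the 2 challenges. Each knockout OVA array lay below the wild-type OVA mean and each knockout saline array above the wild-type saline mean. Knockout minus wild type was -0.34 ± 0.20 after OVA and 0.18 ± 0.22 after saline (log2, SE). The difference between these values, -0.52, was tested by the interaction term of the limma fit and did not pass (p 0.116, adjusted p 1). Its wild-type OVA levels spread from 1.24 to 2.08, so that knockout and wild-type OVA arrays overlapped. By slide, knockout minus wild type was -0.84, 0.29 and -0.46 after OVA. After saline it was 0.07 and 0.30 on slides 1 and 2. On slide 2 both values were thus positive, and the difference of the OVA responses was -0.01 there, against -0.92 on slide 1.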

How the results depend on the processing

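Of 4812 values of single genes under other settings, 4023 kept their sign and their side of the threshold, 117 changed sign with no call before or after, 613 lost a call, 53 gained one, and 6 changed sign with a call. Counts below are of the 10 genes passing with OVA in knockout and then wild type (9 and 10 as reported, 4 and 7 relative to the CD3 genes). Normexp background correction gave 0 and 0, and 0 and 0 relative to the CD3 genes, with 0 and 0 calls across all genes. Leaving out its 12 spots of bright local background gave 8 and 10, with Foxp3 in knockout still not passing (0.39, adjusted p 0.0851). Without slide 1 the counts were 0 and 0, and 1 and 2 relative to the CD3 genes. Relative to the CD3 genes, knockout had 2 with no filter on dim probes and 7 with a trended robust prior, and wild type had 4 with the mean of the probes and 4 with only the groups compared. Leaving out each array in turn gave 1 to 9 and 8 to 10, and 1 to 8 and 3 to 8 relative to the CD3 genes, while genotype calls stayed at 0. Relative to the CD3 genes, Ctla4 in wild type turned to -0.26 with normexp, -0.12 without its bright spots and -0.35 in the authors' value table. Foxp3 turned to -0.0289 in knockout under both normexp settings and to -0.45 in wild type in the authors' value table. The cause of these changes was not tested.

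The replicate numbers did not pair the arrays: of 15 pairs with the same number, 4 correlated above 0.1 (r from -0.405 to 0.341). Slide grouped the arrays of slide 1 and not clearly those of slides 2 and 3. Pairs from different groups on slide 1 ran from 0.323 to 0.478. Those on slide 2 ran from -0.158 to 0.324 and those on slide 3 from -0.0522 to 0.201. The 18 pairs sharing neither slide nor number ran from -0.478 to 0.368. The main fit has no slide term. With the replicate block 5 and 10 genes passed. The knockout calls lost were Cd274 (adjusted p 0.0716), Tnfrsf4 (0.0766), Foxp3 (0.0797) and Il2ra (0.0826).

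Across all genes OVA called 1801 in knockout and 4108 in wild type. Knockout counts were 1185 with no filter, 2771 with the trended robust prior, 2862 in the authors' value table, 845 with slide as a block, 715 with the replicate block and 444 with only the groups compared. Wild-type counts were 2717 with slide as a block and 2039 with only the groups compared. Leaving out 1 array gave 83 to 3307 and 1052 to 6264. The authors' value table called 1641 up and 1221 down in knockout, and 2418 up and 2678 down in wild type, against 1411 and 390, and 2380 and 1728, as reported. Normexp moved the all-gene median of the genotype differences to -0.23 after OVA and -0.22 after saline. The knockout saline group of 2 arrays and the nearness of Ctla4, Foxp3 and the dimmer Il2ra probe to background after saline limit what these data show.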

Other observations

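Other cell types of the lung moved along with the 10 genes in part. Of 8 markers of alternatively activated macrophages, which are a known source of PD-L2, 7 rose with OVA in knockout and 8 in wild type (medians 2.49 and 1.71). Clec10a, a lectin of these cells, rose by 2.23 ± 0.15 in knockout and 1.77 ± 0.14 in wild type (limma adjusted p 0.000862 and 0.000533), and Retnla by 2.42 and 2.52 (adjusted p 0.00933 and 0.00389). The knockout call of Retnla was lost without knockout saline 1 (1.66, adjusted p 0.0564). Of 8 markers shared by type 2 innate lymphoid cells and type 2 helper T cells 3 rose in knockout and 4 in wild type. Il1rl1, for the interleukin-33 receptor, rose by 1.29 and 0.77 (adjusted p 0.00499 and 0.014), and lost its call without knockout saline 1 in knockout (1.33, adjusted p 0.0564) and without wild-type saline 2 in wild type (0.77, adjusted p 0.0521).

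B cell markers passed in neither genotype (0 of 7 each, medians -0.09 and 0.75), and natural killer cell markers had 0 of 7 up in knockout and 2 of 7 in wild type. Of 5 mast cell markers 1 rose in knockout and 1 fell in wild type. Of 6 endothelial markers 1 fell in knockout and 4 in wild type, and of 8 lung epithelium markers 1 rose in each. Of 4 markers of tissue other than lung 1 fell in knockout and 3 in wild type. Over all genes tested 6.45% passed upward in knockout and 10.9% in wild type, and the downward counts are given above. A single call in a short list therefore does not show that its cell type moved.

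The genes whose levels over the 11 arrays lay closest to Pdcd1, by root mean square difference of centred log2 levels among 15751 genes, were Ackr1 (0.345), Serpina3g (0.351) and Scin (0.392), where the median gene had 1.9. Closest to Cd274 were Psmb8 (0.132), Hpgds (0.144) and Casp4 (0.16), with a median of 0.747. Closest to Ctla4 were Ch25h (0.471), Stil (0.526) and Apol7c (0.529), with a median of 1.64. Closest to Foxp3 were Dscam (0.352), Gbp2b (0.393) and Ccdc18 (0.404), with a median of 1.21. For Ctla4 and Foxp3 this likeness includes readings near background.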
